A study of Mus musculus with 9 samples.

Results

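The profile described here is that of mouse knee chondrocytes grown in culture without any added stimulus, the control group of a study of interleukin-1β (IL-1β) and secreted frizzled-related protein 5 (SFRP5). It rests on the 3 control libraries among 9 libraries in all. The other 6 are 3 libraries of cells given IL-1β, an inflammatory cytokine, and 3 of cells given IL-1β with recombinant SFRP5, an extracellular Wnt antagonist. All groups were wild-type, and the labels name no allele, age, strain or sex, no dose or time of treatment, and no number of animals. The cells were freed from knee cartilage with collagenase D and cultured in DMEM with serum, antibiotics and glutamine, and the labels do not say for how long or after how many passages. Whether the 3 libraries of a group came from separate animals or cultures is not stated, so SDs and p-values measure only the spread between libraries, which may be technical. Genes were ranked by their mean length-scaled level in the 3 control libraries, that is, each count divided by the length of its gene and scaled to a sum of 1000000 per library (TPM). Levels are the mean ± SD of 3 libraries unless single values are given, in which case they stand in the order of libraries 1, 2 and 3. The gene length in the table covers all annotated exons. With median transcript lengths 84 of 192 named genes moved by over 1.5 times, among them Ccnd2 from 339 to 1934 TPM, while Col2a1 stayed first. Part of these moves is a common rescaling to the sum of 1000000. Sox9 went from 356 to 217 TPM, a ratio of 0.609 that it shared with mt-Nd1, mt-Cytb, Matn1 and others. Genes with this shared ratio kept their levels relative to each other. Orders and overlaps between genes given below hold for the table's lengths, and the spread between libraries does not cover this choice.

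Chondrocytes are the only resident cells of hyaline cartilage, the tissue that covers joint surfaces. They secrete its matrix, a mesh of collagen II fibrils, with collagens IX and XI as minor partners, which holds aggrecan, a proteoglycan that binds water and carries compressive load. The transcription factor SOX9, helped by SOX5 and SOX6, switches on these matrix genes, and growth factor, hedgehog, integrin and ion channel signals adjust their output. In monolayer culture chondrocytes are known to lose these features over time and to make collagen I. In bulk RNA, fewer cells of a type and less RNA per cell cannot be told apart.

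The total count per control library was 17960438 to 20107339, and 3 counts in 1 library equalled 0.149 to 0.167 CPM. The log2 levels of 14414 genes correlated between control libraries with r of 0.987 to 0.988, across genes that are not independent replicates. The 3 pairs of control libraries differed by more than sampling noise (chi-square over genes tested, divided by their number, 2.20 to 2.73), so none is a copy of another.

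The sequences just before the transcription start are shown for 8 of the 30 highest genes, 7 of them matrix genes or genes that act on the matrix, together with the elongation factor gene Eef2, because promoter sequence is one thing that such abundant genes could share and that the ranking did not use. Each is the 100 bases upstream of a RefSeq start site (GRCm38.p6), 5′ to 3′ on the strand of the gene. Capitals mark TATAAA (the core of a TATA box) and GGGCGG (a GC box core), searched on both strands. The motifs share no letters, and adjoining GGGCGG matches, as in Acan, can overlap.
Acan (chr7:79053126-79053225, plus strand): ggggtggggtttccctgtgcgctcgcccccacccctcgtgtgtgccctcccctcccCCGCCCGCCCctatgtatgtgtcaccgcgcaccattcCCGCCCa
Cnmd (chr14:79662184-79662283, minus strand): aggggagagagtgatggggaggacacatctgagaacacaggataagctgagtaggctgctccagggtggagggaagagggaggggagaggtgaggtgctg
Col11a1 (chr3:114030440-114030539, plus strand): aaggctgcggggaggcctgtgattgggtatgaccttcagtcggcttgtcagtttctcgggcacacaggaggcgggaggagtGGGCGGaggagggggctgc
Matn1 (chr4:130944285-130944384, plus strand): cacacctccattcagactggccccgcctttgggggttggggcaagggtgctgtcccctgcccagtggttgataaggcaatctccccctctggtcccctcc
Fmod (chr1:134037154-134037253, plus strand): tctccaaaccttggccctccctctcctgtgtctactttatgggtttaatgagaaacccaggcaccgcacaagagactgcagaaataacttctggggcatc
Timp3 (chr10:86300312-86300411, plus strand): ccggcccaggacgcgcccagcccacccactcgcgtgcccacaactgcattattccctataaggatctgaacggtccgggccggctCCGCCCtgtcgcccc
Serpinh1 (chr7:99353240-99353339, minus strand): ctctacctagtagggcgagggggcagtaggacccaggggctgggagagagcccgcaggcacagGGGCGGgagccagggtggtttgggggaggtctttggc
Eef2 (chr10:81176531-81176630, plus strand): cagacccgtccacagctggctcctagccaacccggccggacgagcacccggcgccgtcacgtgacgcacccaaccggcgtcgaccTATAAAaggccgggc

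Among the 100 highest protein-coding genes of the nuclear genome, 70 had at least 1 such window, 84 windows in all. TATAAA was found in 3 of the 84 windows (3.57%), those of Eef2, Tubb2a and Vim. GGGCGG stands in the windows of Acan, Col11a1, Timp3 and Serpinh1, and neither motif in those of Cnmd, Matn1 and Fmod. The share with TATAAA was 2.38% of 12520 windows of protein-coding genes with a mean of at least 1 TPM and 5.58% of 20430 windows of all protein-coding genes. GGGCGG was found in 46.4% of the 84 windows, 45.9% of those of genes with a mean of at least 1 TPM and 34.2% of those of all protein-coding genes. The shares of the highest genes were thus near those of expressed genes in general, and the matches describe sequence, not binding sites. Col2a1, Thbs1, Fn1, Comp, Col1a1, Ccn2 and H19 had no entry.

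The control cells expressed a broad set of genes with a steep top. Of 56748 genes in the table, 14414 were at 1 TPM or more in every control library, among them 12005 of 21970 protein-coding genes (54.6%). At 10 TPM or more there were 9102 genes, at 100 TPM 1543 and at 1000 TPM 105. The 10 highest genes held 12.7% ± 0.112 of the summed level, 405 genes on average held 50% and 5391 held 90%. Protein-coding genes held 92.1% ± 0.121, processed pseudogenes 3.12% ± 0.0645 and long noncoding RNAs 2.35% ± 0.0195.

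Matrix genes led the ranking. Col2a1 (ENSMUSG00000022483), the collagen II chain, was first at 36453, 35417 and 36209 TPM in the 3 libraries, 36026 ± 541 on average. The 3 values lay within a few percent of each other and more than 2 times above every other gene's. The next matrix gene, Thbs1 (ENSMUSG00000040152), which encodes the matricellular protein thrombospondin-1, was at 12747, 12481 and 12214 TPM. Fn1, fibronectin, was at 10692, 10170 and 10213 TPM and Sparc, a collagen-binding glycoprotein, at 10075, 9919 and 9936 TPM. Their ranges did not overlap, but their means, 10358.5 and 9977 TPM, were close, and the order of these 3 genes depends on the length used: with median transcript lengths Sparc was in place 2, Fn1 in place 3 and Thbs1 in place 6. Serpinh1, the chaperone HSP47 that procollagen needs in the endoplasmic reticulum, was at 7442 ± 21.4 TPM, in 9th place.

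The other genes named as chondrocyte markers beforehand were high as well, with Sox9, a regulator and not a product, well below the matrix genes. Acan (ENSMUSG00000030607), aggrecan, was at 5944, 5708 and 5700 TPM and Comp (ENSMUSG00000031849), cartilage oligomeric matrix protein, at 4929, 4819 and 4817 TPM. Matn1 (ENSMUSG00000040533), matrilin-1, a protein of the cartilage matrix, was at 3920, 3810 and 3710 TPM, and Sox9 (ENSMUSG00000000567) at 369, 350 and 350 TPM, rank 366. Together the 5 markers held 50835 ± 756 TPM. Cnmd, chondromodulin, which keeps cartilage free of vessels, was at 5717 ± 109 TPM, and its range of 5599 to 5814 overlapped that of Acan.

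**Figure D1:**
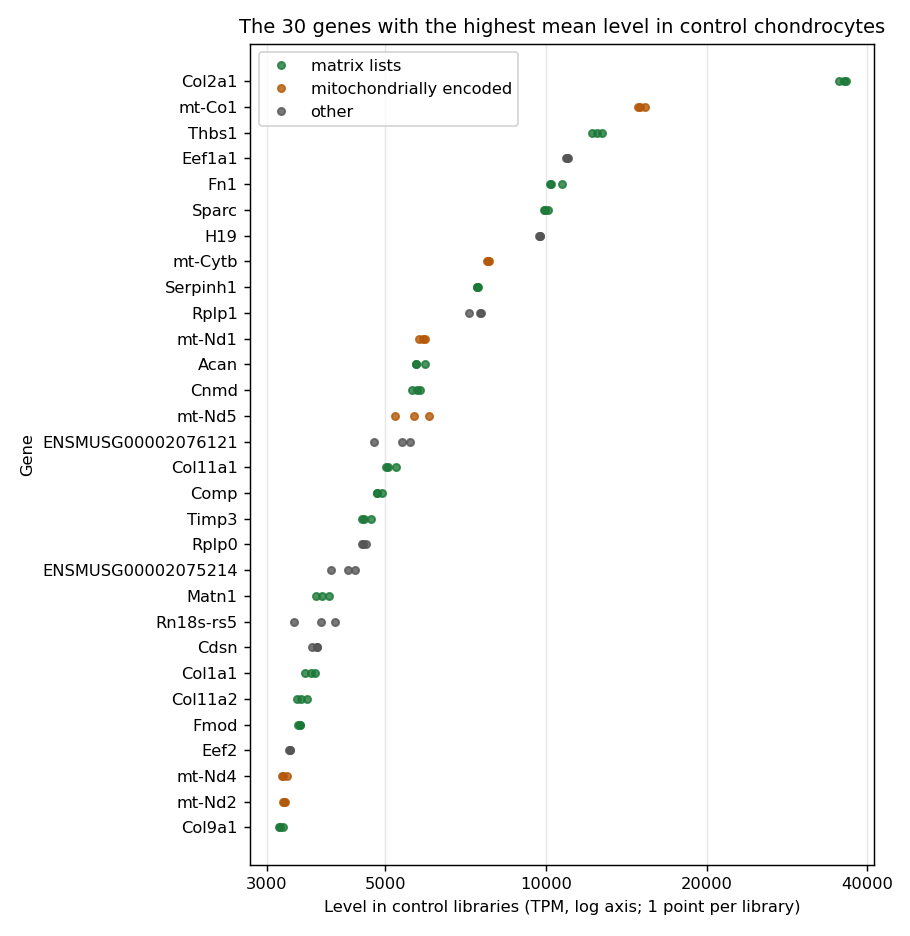
Levels of the 30 highest genes in control chondrocytes, 1 point per control library, in TPM on a log axis, ordered by their mean. Green marks genes of the matrix lists, orange mitochondrially encoded genes and grey other genes. Col2a1 stands alone near 36026 TPM, while the genes from Col11a1 down lie between means of 3180 and 5105 TPM, with points of neighbouring genes often interleaved.

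Among the 30 highest genes, 26 were protein-coding, 6 of them mitochondrially encoded, 1 was a long noncoding RNA, 2 were short unnamed RNAs and 1 was an rRNA gene. Of the 29 pairs of neighbours in this order, 14 had overlapping values, so places next to each other are often not distinct. From Serpinh1 to Rplp1 and again from mt-Nd1 to Col11a1 each gene's range overlapped that of the next. The housekeeping members were the translation factor Eef1a1 at 10937 ± 35.5 TPM, the ribosomal proteins Rplp1 and Rplp0 at 7408 and 4555 TPM, and the elongation factor Eef2 at 3308 ± 5.34 TPM. The skin-type adhesion protein Cdsn, corneodesmosin, stood among them at 3650.4, 3718 and 3721 TPM, in 23rd place, between Rn18s-rs5 and Col1a1.

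H19 (ENSMUSG00000000031), an imprinted long noncoding RNA that is abundant in fetal tissues and hosts a miRNA, was the highest noncoding gene at 9760 (control 1), 9692 (control 2) and 9740.0 (control 3) TPM. The unnamed RNA genes ENSMUSG00002076121 and ENSMUSG00002075214, of 71 and 70 bases, reached 5231 ± 414 and 4201 ± 224 TPM. Both lie inside H19 on the other strand, and their counts were 1.46% and 1.15% of the count of H19. The labels do not state the strand setting of the counting, so these RNAs and reads of H19 itself cannot be told apart. The same holds for 9 of 119 noncoding genes at a mean of 100 TPM or more, which overlap a higher gene on the other strand, among them Gm29233 opposite Thbs1 at 1137 TPM and Gm44732 opposite Cdkn1c at 265 TPM.

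All 8 cartilage collagen genes were above 100 TPM in every library, where 6.53% of all protein-coding genes were, and 6 were above 1000 TPM. This list too was chosen with earlier results of these data known. After Col2a1 came Col11a1 at 5105 ± 119, Col11a2 at 3487 ± 73.0 and Col9a1 at 3179.6 TPM, the chains of the minor collagens XI and IX. Col9a3 and Col9a2, which join Col9a1 in one trimer, were lower at 2089 and 1694 TPM, with no overlap among the 3 chains. The cartilage collagens summed to 52219 ± 785 TPM, or 5.22% of the total level. Fibrous and other collagens summed to 15156 ± 193 TPM. Their highest members were Col1a1, the main collagen of bone, tendon and skin, at 3687, 3539 and 3626 TPM, Col6a1 of the pericellular matrix at 2945 ± 28.3 TPM, Col1a2 at 2036 ± 26.9 TPM and Col3a1 at 1392 ± 26.6 TPM. Col1a1 overlapped Col11a2 in its values and lay below Matn1 in every library. With median transcript lengths Col1a1, at 2439 TPM, was above Matn1, at 2323 TPM.

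Proteoglycan genes were uneven. Of 12 genes for aggregating proteoglycans, link proteins and hyaluronan synthases 7 reached 1 TPM in every library (58.3%, near the 54.6% of all protein-coding genes). In every library 5 reached 10 TPM: Acan, the link protein Hapln1 at 933.4 ± 14.7, the hyaluronan receptor Cd44 at 47.9 ± 1.12, the hyaluronan synthase Has2 at 34.0 ± 0.888, and versican, Vcan, at 23.4 ± 0.517 TPM. Small leucine-rich proteoglycans, which bind and space collagen fibrils, were led by fibromodulin, Fmod, at 3465, 3436 and 3458 TPM, followed by biglycan, Bgn, at 1806 ± 47.7, osteoglycin, Ogn, at 1586 ± 21.4 and decorin, Dcn, at 404.1 ± 6.87 TPM. With median transcript lengths Bgn, at 3361 TPM, was above Fmod, at 2229 TPM. Of 14 small leucine-rich proteoglycan genes 8 were above 100 TPM in every library (57.1%, against 6.53% of all protein-coding genes). Among 24 cartilage glycoproteins 13 were (54.2%). Besides Thbs1, Cnmd, Comp and Matn1 the γ-carboxylated protein gene Ucma reached 2159 ± 43.1 TPM and the mineralization inhibitor Mgp 1132 ± 60.3 TPM, the last 2 named after their values were seen.

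Genes that build, modify or protect the matrix were high next to those that degrade it. All 28 collagen-modifying enzymes and chaperones in the table were detected, against 54.6% of all protein-coding genes. Above 100 TPM in every library were 22 (78.6%, against 6.53%). They were led after Serpinh1 by P4hb, a subunit of prolyl 4-hydroxylase, at 2606 ± 13.5, the crosslinking enzyme Lox at 1481 ± 42.6 and the procollagen proteinase enhancer Pcolce at 1139 ± 8.09 TPM. Of 37 genes for glycosaminoglycan synthesis 36 were detected (97.3%, against 54.6% of all protein-coding genes). The sulfate donor synthase Papss2 led them at 848 ± 20.6 TPM, before Xylt1, which attaches the first sugar of the chains, at 423.1 ± 9.82, Csgalnact1 at 288.3 ± 1.94 and the chondroitin sulfotransferase Chst11 at 235.2 ± 2.81 TPM.

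The 29 matrix-degrading proteases summed to 1820 ± 25.1 TPM and the 16 protease inhibitors to 9155 ± 78.2 TPM. Timp3, an inhibitor of metalloproteases and aggrecanases that stays bound to matrix, gave 4695, 4527 and 4560 TPM of the latter. The cysteine protease inhibitor Cst3 followed at 1257 ± 39.6, then Timp2 at 1176 ± 14.8 and Timp1 at 847 ± 20.4 TPM. The highest proteases were the serine protease Htra1 at 324.1 ± 11.7, the cathepsins Ctsk and Ctsb at 303 ± 4.08 and 293.5 ± 8.14, and the gelatinase Mmp2 at 283.3 ± 6.99 TPM, whose ranges overlapped in part. The main enzymes of cartilage breakdown, named after their values were seen, were lower than these proteases. Mmp14 was at 157.7 ± 2.00 TPM, the collagenase Mmp13 at 54.3, 51.1 and 59.7 TPM and the aggrecanases Adamts5 and Adamts4 at 24.3 ± 0.876 and 5.29 ± 0.455 TPM. Mmp14, Mmp13 and Adamts5 were still above 10 TPM in every library, a level that 38.8% of all protein-coding genes reached. The stromelysin Mmp3 was at 4.54 ± 1.14 TPM. All matrix lists together, 236 genes, held 17.9% ± 0.200 of the summed level.

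Hypertrophy is the last stage of chondrocyte life in growth cartilage, marked by collagen X and mineral. Of 20 genes of this list 18 were detected (90%, against 54.6% of all protein-coding genes). The sphingomyelinase Smpd3 was at 726.9 ± 5.28 TPM, Spp1, osteopontin, at 703, 707 and 652 TPM, the collagen X gene Col10a1 at 193, 186 and 195 TPM and the phosphate transporter Slc20a1 at 166.9 ± 1.37 TPM. Ihh, the hedgehog ligand of prehypertrophic cells, was at 4.60 ± 1.05 TPM and Pthlh, the parathyroid hormone-related peptide, at 1.03 ± 0.495 TPM, both named after their values were seen.

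Transcription factor genes were far below the matrix genes. Of 1525 genes that the deposited table assigns to a transcription factor family, 967 were at 1 TPM or more in every control library (63.4%, against 54.6% of all protein-coding genes), 43 were above 100 TPM and 0 above 1000 TPM. With the table's gene lengths the highest was Atf4 (ENSMUSG00000042406), the regulator of the amino acid and integrated stress response, at 956, 972 and 949.7 TPM. Atf5, a relative, was at 853, 829.7 and 852 TPM, so the 2 did not overlap. Ddit3, or CHOP, another member of the same response, was at 470.2 ± 12.4 TPM in 6th place. The bZIP family to which all 3 belong summed to 5099 TPM over 53 genes, second to the much larger zinc finger family zf-C2H2 with 7879 TPM over 609 genes. With median transcript lengths Atf4 was at 799 TPM, while Tsc22d1 moved from 363 to 1908 TPM. The first place of Atf4 and the lack of factors above 1000 TPM thus depend on the length used.

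The remaining genes of the top 20 were of many kinds. The table gives Hif1a no family, so it is not among them. Ybx1, a cold-shock domain protein that binds RNA and DNA, was at 684.8 ± 20.4 TPM and Nfe2l1, a regulator of proteasome genes, at 600.0 ± 3.94 TPM. Peg3 and Plagl1, both imprinted zinc finger genes, were at 536.8 ± 24.7 and 360.2 ± 16.6 TPM. Tsc22d1 was at 363.2 ± 2.85 and Sox9 at 356.3 ± 10.6 TPM, and their ranges overlapped each other and that of Plagl1. Next came Tbx15, a T-box gene of limb skeleton, at 298.9 ± 9.72, Aff3 at 285.7 ± 5.95, the AP-1 member Jund at 282.1 ± 5.21 and Nfix at 277.4 ± 6.22 TPM. Srebf1, which drives lipid synthesis, was at 224.6 ± 8.98, the retinoic acid receptor Rarg at 218.9 ± 5.62, the hindlimb gene Pitx1 at 207.4 ± 3.45 and Ssrp1, a histone chaperone, at 178.4 ± 2.12 TPM. Hoxa10 at 175.6 ± 0.693, Creb3l2, which acts in collagen secretion, at 174.4 ± 2.78 and Xbp1 of the unfolded protein response at 174.4 ± 4.66 TPM closed the group with overlapping values. For Jund, 43.5% of the 100-base windows of its transcripts also occur in transcripts of 1 other gene, so its level depends on how reads were shared.

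Of the 52 listed chondrocyte and skeletal transcription factors, 49 were detected and 33 were above 10 TPM in every library (63.5%, against 38.8% of protein-coding genes). The list was chosen with earlier results of these data known, so the gap between these shares is not an independent result. Sox9, Hif1a at 352.6 ± 7.29, the oxygen-sensing factor of cells in avascular tissue, Tbx15 and Pitx1 were its highest members. The SOX9 partners were lower, Sox6 at 56.8, 55.5 and 53.7 TPM and Sox5 at 18.8, 16.8 and 17.1 TPM. The RUNX genes were closer to each other, Runx1 at 19.96 ± 1.20, Runx3 at 14.1 ± 1.04 and Runx2 at 13.0 TPM, with overlap between the last 2. The SOX partners and the RUNX genes were named after their values were seen.

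Positional genes of the limb differed by cluster. Of 39 Hox genes, which record position along the body and limb, 22 were detected (56.4%, near the 54.6% of all protein-coding genes). The Hoxa cluster summed to 364 ± 7.14 TPM with 10 of 11 genes detected, and Hoxc to 163.9 ± 2.00 TPM with 9 of 9. Hoxd summed to 45.0 ± 2.92 TPM with 3 of 9, and Hoxb to 1.91 ± 0.219 TPM with 0 of 10. Hoxa10 at 176, 176 and 175 TPM, Hoxc10 at 93.4, 91.3 and 90.4, Hoxa11 at 86.0, 79.7 and 82.6 and Hoxa9 at 42.3, 40.8 and 41.0 TPM led the list, each without overlap with the next. With median transcript lengths Hoxa9, at 69.0 TPM, was above Hoxc10 and Hoxa11, at 55.9 and 50.4 TPM. Hoxd12, Hoxd1, Hoxb1, Hoxb5 and Hoxb8 had 0 counts in all 3 libraries. The T-box gene of the hindlimb, Tbx4, was at 25.1, 22.6 and 25.5 TPM and that of the forelimb, Tbx5, at 8.61, 7.89 and 8.25 TPM, both named after their values were seen. Of 36 nuclear receptors 26 were detected (72.2%), with the thyroid hormone receptor Thra at 98.2 ± 4.16, the glucocorticoid receptor Nr3c1 at 86.96 ± 3.73 and the oxysterol receptor Nr1h2 at 62.5 ± 0.591 TPM behind Rarg, and Rorb had 0 counts.

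**Figure D2:**
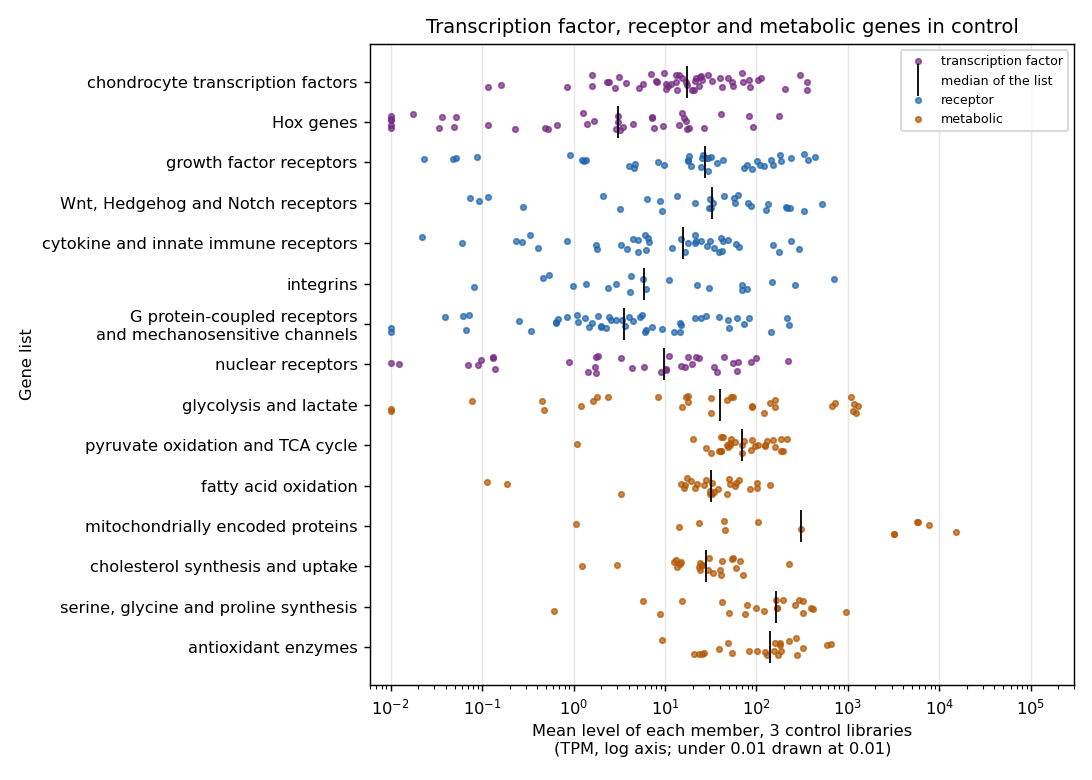
Mean level of each listed gene in the 3 control libraries, in TPM on a log axis, with 1 point per gene, a bar at the median of its list and values under 0.01 TPM drawn at 0.01. Purple marks transcription factor lists, blue receptor lists and orange metabolic lists. The medians run from 3.04 TPM for Hox genes to 304.5 TPM for mitochondrially encoded proteins, and points of many lists spread over several powers of 10. The antioxidant list is narrower, with all 24 genes between 1 TPM and the 651.5 TPM of Hmox1.

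Of 178 receptor genes on the lists, 145 were detected (81.5%, against 54.6% of all protein-coding genes). Above 100 TPM in every library were 27 (15.2%, against 6.53%), and 0 reached 1000 TPM. The growth factor receptors were led by FGF receptors. Fgfrl1, a receptor without a kinase domain, was at 440, 425 and 433 TPM, and Fgfr3 (ENSMUSG00000054252), which restrains cartilage growth, at 380, 369 and 354 TPM, below Fgfrl1 in every library. This order depends on the length used, as with median transcript lengths Fgfr3 was at 386 and Fgfrl1 at 316 TPM. Fgfr2 and Fgfr1, named after their values were seen, followed at 179.7 ± 1.79 and 121.6 ± 3.13 TPM and Fgfr4 at 4.59 ± 0.176 TPM. Igf2r, which removes IGF2, was at 331.9 ± 1.77 TPM and the collagen receptor Ddr2 at 241.1 ± 7.61 TPM. The kinase receptor for IGF1, Igf1r, was far lower at 19.3 ± 1.40 TPM and Pth1r, the receptor of parathyroid hormone, was at 78.1 ± 4.58 TPM, again named after their values were seen.

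Hedgehog co-receptors headed the Wnt, hedgehog and Notch list, in which 24 of 28 genes were detected (85.7%). Gas1 was at 541, 527 and 497 TPM, Cdon at 331, 333 and 330.4 TPM and Boc at 215.5 ± 2.70 TPM, the 3 co-receptors that bind hedgehog ligands. Fzd9 (ENSMUSG00000049551), at 230.2, 230.3 and 237.5 TPM, was the highest Wnt receptor. Its values lay above those of Boc in every library, and those of Gas1 and Cdon lay above both.

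Among 40 cytokine and innate immune receptors, 33 were detected (82.5%, against 54.6% of all protein-coding genes). Tnfrsf11b, osteoprotegerin, a secreted decoy receptor that restrains osteoclasts, was at 301, 289 and 275 TPM, and Il6st, the shared signalling chain of IL-6-type receptors, at 245, 236 and 232 TPM. Tnfrsf1a, the main receptor for TNF, was at 178.6 ± 4.94 TPM and Ltbr, the lymphotoxin β receptor, at 150.8 ± 10.6 TPM. The receptor for the cytokine used in the study, Il1r1 (ENSMUSG00000026072), was at 42.4, 43.0 and 42.9 TPM, and its partner chain Il1rap (ENSMUSG00000022514) at 4.89, 5.16 and 5.14 TPM. The decoy receptor Il1r2, named after its values were seen, had 7 counts over the 3 libraries, 0.273 ± 0.145 TPM. Il1r1 was thus above both other chains in every library. Il1b and Tnf had 0 counts in all 3 control libraries.

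Integrins, the receptors that bind matrix, had 16 of 20 members detected (80%). The β1 chain Itgb1, partner of most matrix-binding α chains, was at 713, 717 and 707 TPM, followed by Itgb5 at 264.2 ± 5.78, the fibronectin-binding Itga5 at 146.3 ± 2.63 and Itga6 at 79.1 ± 2.45 TPM. Of the collagen-binding α chains, named after their values were seen, Itga10 was highest at 69.2 ± 0.971 TPM, followed by Itga11 at 22.3 ± 3.42, Itga1 at 11.1 ± 0.563 and Itga2 at 1.37 ± 0.299 TPM, without overlap. Of 50 G protein-coupled receptors and mechanosensitive channels 37 were detected (74%), and 3 were above 100 TPM in every library (6%, near the 6.53% of all protein-coding genes). They were the adhesion receptor Adgrg2 at 234, 229.6 and 222.5 TPM and the channels Trpv4, which opens on swelling and load in cartilage, at 212, 218 and 218 TPM and Piezo1, which opens on membrane stretch, at 144, 145 and 144 TPM. Lpar4, a lysophosphatidic acid receptor, was at 83.3 ± 1.16 TPM. The second stretch channel Piezo2, named after its values were seen, was at 21.1 ± 0.521 TPM, and the receptors Adora3 and Hrh2 had 0 counts.

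Secreted growth factors and their antagonists were led by binding proteins rather than ligands, with Igfbp5 at 2472, 2468 and 2445 TPM, Igfbp4 at 819.4 ± 9.97, the BMP antagonist Grem1 at 724.7 ± 25.7 and the Wnt antagonist Frzb at 372.6 ± 2.10 TPM. Of 55 such genes 46 were detected (83.6%, against 54.6% of all protein-coding genes). Sfrp5 (ENSMUSG00000018822), the gene of the protein added in the study, was at 7.42, 11.2 and 12.0 TPM, or 10.2 ± 2.45 TPM, so that the endogenous transcript was present at a low level in every control library, lowest in library 1. Igf2, named after its values were seen, was at 130.6 ± 2.95 TPM.

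Of 174 metabolic genes listed 173 were in the table and 162 were detected (93.6%, against 54.6% of all protein-coding genes). Glycolytic enzymes were the highest of the nuclear-encoded ones. Eno1 was at 1281, 1307 and 1308 TPM, Pgk1 at 1212, 1256 and 1254, Aldoa at 1164, 1159 and 1209.8 and Ldha, which makes lactate, at 1087, 1153 and 1145 TPM. Eno1 lay above the other 3 in every library, and the values of Pgk1, Aldoa and Ldha did not overlap either, though by small gaps. With median transcript lengths Pgk1, at 929 TPM, was below Aldoa and Ldha, at 1382 and 1433 TPM. The hexokinase and transporter steps were lower, with Slc2a1, the basal glucose transporter, at 157.9 ± 2.86, Hk1 at 55.7 ± 0.210 and Hk2 at 47.5 ± 0.589 TPM, all 3 named after their values were seen. The list of 32 genes summed to 8371 ± 115 TPM, and Pklr, a pyruvate kinase of liver and red cells, had 0 counts.

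Gapdh, the glycolytic enzyme often used as a reference gene, was listed at 15.5, 19.4 and 16.2 TPM, rank 7471, which is far below its neighbours in the pathway. Of the 100-base windows of its transcripts, 20.9% also occur in transcripts of 86 other genes, and 51.7% of those of Pgk1 and 20.4% of those of Eno1 occur elsewhere too. No source here says how such reads were counted, so the level of Gapdh is uncertain. So are those of mt-Co2, mt-Co3, mt-Atp6, mt-Nd3 and mt-Nd4l, which were at 14.2 to 105 TPM with 97.6% to 99.9% of their windows shared, while mt-Co1 was at 15071.5 ± 243 TPM with 30.8% shared and mt-Cytb and mt-Nd5 at 7794 ± 24.2 and 5640 ± 405 TPM with 0% shared. The level did not follow the shared part throughout, as mt-Nd4 was at 3231 TPM with 60.8% shared and mt-Atp8 at 2.23, 0.988 and 0 TPM with 0% shared. Mitochondrially encoded genes of all kinds held 4.30% ± 0.0674 of the level.

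Genes of mitochondrial oxidation were lower. They were led by Sdhd of succinate dehydrogenase at 214.9 ± 10.0, the malate dehydrogenase Mdh1 at 197.4 ± 3.37 and the pyruvate dehydrogenase subunit Pdha1 at 183.7 ± 7.08 TPM, whose values did not overlap. Of 31 genes of pyruvate oxidation and the TCA cycle 30 were above 10 TPM in every library (96.8%, against 38.8% of all protein-coding genes). Of 28 genes of fatty acid oxidation 25 were, but only Etfa at 140.9 ± 8.07 TPM and Acadvl at 102 ± 2.71 TPM were above 100 TPM in every library. The list summed to 1147 ± 11.5 TPM, about the level of the single gene Ldha. Cholesterol synthesis and uptake summed to 943.5 ± 10.8 TPM over 24 genes, and after Srebf1 its highest members were Srebf2 at 70.4 ± 1.51, Hmgcs1 at 66.7 ± 1.71 and Cyp51 at 60.1 ± 1.74 TPM.

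The synthesis and uptake of serine, glycine and proline, of which collagen holds much glycine and proline, had 12 of 21 genes above 100 TPM in every library (57.1%, against 6.53% of all protein-coding genes). The list summed to 4152 ± 13.1 TPM, which includes the regulator Atf4. Asns, asparagine synthetase, was at 416, 421 and 424 TPM, Phgdh, the first enzyme of serine synthesis, at 389, 379 and 402 TPM and Shmt2, which makes glycine in mitochondria, at 319, 318 and 325 TPM. Of the windows of Phgdh 28.1% occur in transcripts of 8 other genes. Among 24 antioxidant enzymes all were detected, against 54.6% of all protein-coding genes. Hmox1, heme oxygenase-1, was at 651.5 ± 5.06, the lipid peroxidase Gpx4 at 583.5 ± 17.7, Gpx8 at 320.6 ± 3.51 and Prdx1 at 278.1 ± 8.55 TPM.

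All 30 cell cycle genes were detected, inhibitors among them, against 54.6% of all protein-coding genes. Cdkn1c (ENSMUSG00000037664), an imprinted inhibitor of cyclin-dependent kinases needed in cartilage, was at 717, 732 and 729 TPM and Cdkn1a, or p21, at 409.8, 391 and 402 TPM. The D-type cyclins Ccnd2 and Ccnd1 were at 339.4 ± 4.15 and 171.9 ± 6.17 TPM. Of the windows of Cdkn1c 19.5% are shared with 1 other gene. The proliferation marker Mki67 and the mitotic topoisomerase Top2a, named after their values were seen, were at 65.7 and 72.9 TPM.

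Marker lists of other joint cells were compared with the 12 chondrocyte markers, all above 10 TPM in every library, whose sum was 65137 ± 946 TPM and whose median member was at 3333 TPM. All these lists were chosen with earlier results of these data known, so the comparison only describes their levels. Blood cell markers were at or near 0. Neutrophil markers summed to 0 to 0.364 TPM per library, with S100a8, S100a9, Ngp, Ltf, Ly6g, Cxcr2, Csf3r and Retnlg at 0 counts. T, B and NK cell markers summed to 0.213 to 0.415 TPM with 10 of 13 at 0 counts, Cd3d, Cd3e and Ms4a1 among them. Mast cell markers summed to at most 0.0255 TPM with 6 of 7 at 0, and erythroid markers to 0.441 to 0.857 TPM with 5 of 8 at 0. A count of 0 in 1 library allows up to 3 counts. Endothelial markers summed to 2.86 to 3.81 TPM, mostly from Egfl7 at 2.51 ± 0.335 TPM, with Cldn5 and Emcn at 0 counts.

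Macrophage markers summed to 45.2 to 48.5 TPM, of which Lyz2, lysozyme, gave 26.6 ± 1.53 TPM. Cd68 was at 5.18 ± 1.13, Laptm5 at 3.82 ± 0.359 and Cd14 at 3.22 ± 0.0841 TPM, whereas Cd163 and Aif1 had 0 counts and the median of 16 members was 1.03 TPM. Of the osteoclast markers Ctsk gave 303 of the 313 TPM. Acp5 was at 8.84 ± 1.05 TPM, Oscar and Mmp9 were below 1 TPM on average, and Dcstamp had 0 counts. Skeletal muscle markers summed to 15.4 to 22.2 TPM, with Acta1 at 5.53 ± 0.626 and Tnnt3 at 5.25 TPM and Ckm and Myh4 at 0 counts. Adipocyte markers summed to 76.0 to 82.0 TPM, with Lpl at 31.2 ± 1.15, Pparg at 10.4 ± 0.384, Fabp4 at 9.81 ± 0.727, Plin4 at 8.74 ± 0.448 and, named after its values were seen, Adipoq at 8.23 ± 0.619 TPM.

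**Figure D3:**
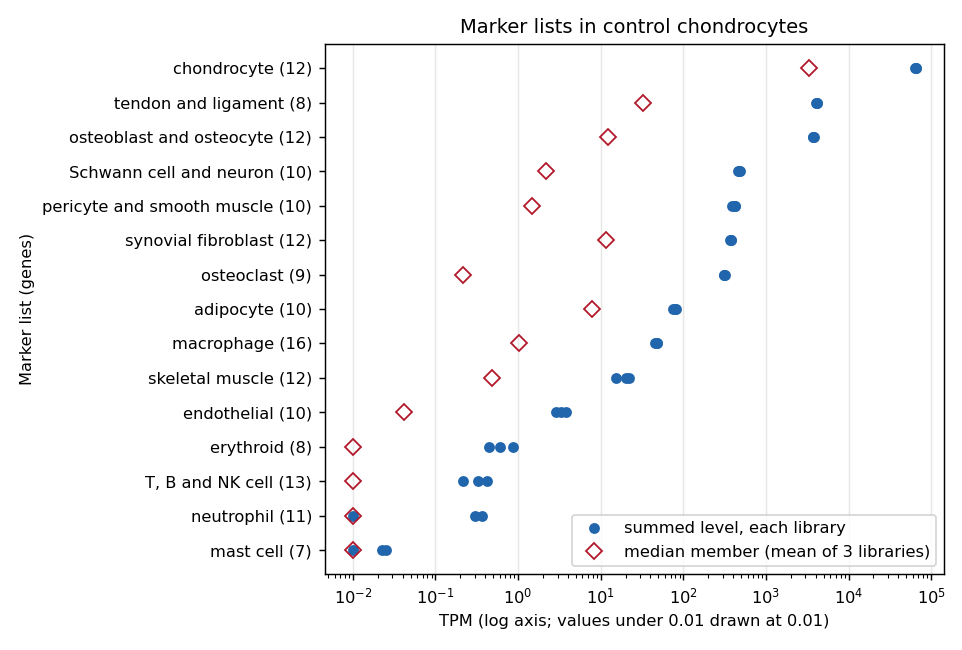
Summed level of each cell type marker list in each control library (blue points) and the level of its median member (red diamonds), in TPM on a log axis, with the number of genes in brackets and values under 0.01 drawn at 0.01. The chondrocyte list is highest by both measures, at 65137 and 3333 TPM, among lists chosen with earlier results of these data known. The tendon and osteoblast lists come next by sum, but their median members are at 32.9 and 12.4 TPM.

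Lists of connective tissue cells were higher, most of them mainly through 1 gene, but the synovial fibroblast list through several. Tendon and ligament markers summed to 4104 ± 23.7 TPM, of which Fmod gave 3453, Col12a1 418.3 ± 8.08, Egr1 150.8 ± 8.10 and Thbs4 54.9 ± 3.79 TPM, while the tendon regulators and products Scx, Tnmd and Mkx, named after their values were seen, were at 10.9, 8.08 and 7.93 TPM. Osteoblast and osteocyte markers summed to 3744 ± 71.1 TPM, of which Col1a1 gave 3617. Alpl was at 50.6 ± 3.68, Ibsp at 18.5 ± 2.11 and Bglap2 at 16.97 ± 3.11 TPM, and the osteocyte genes Sost and Mepe had 0 counts. Synovial fibroblast markers summed to 375 ± 7.65 TPM with 10 of 12 detected, led by Cd248 at 134 ± 2.77, Pdpn at 84.4 ± 6.12, the lubricin gene Prg4 at 68.3 ± 1.64, which surface chondrocytes make too, and Pdgfra at 29.4 ± 0.744 TPM. Pericyte and smooth muscle markers summed to 392 to 425 TPM, of which the contractile genes Acta2 and Tagln gave 313.7 ± 17.3 and 83.8 ± 1.38 TPM. Of the windows of Tagln 48.3% occur in transcripts of 2 other genes. Cnn1 was at 8.27 ± 0.861 and Mcam at 2.90 ± 0.608 TPM. Schwann cell and neuron markers summed to 469 ± 9.54 TPM, of which the widely expressed Pmp22 gave 417.9 ± 11.9 TPM, with Ncam1 at 33.0 ± 0.640, Tubb3 at 8.71 ± 0.784 and Prph at 4.53 ± 1.35 TPM and Rbfox3 at 0 counts. Of the 12 markers of the labelled cell type, chondrocyte, 7 were above 1000 TPM in every library and 11 above 100 TPM, and the part of other connective tissue cells in Col1a1, Fmod, Acta2 and the like was not tested.

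The resting profile was then set against the stimulated cells. Both comparisons use the same 3 control libraries, so they are not independent of each other. Of 15502 genes tested, 12227 differed between IL-1β and control (78.9%, of which 38.5% of genes were higher and 40.4% lower) and 11828 between IL-1β with SFRP5 and control (76.3%, with 37.3% higher and 39.0% lower), in edgeR's quasi-likelihood test at an adjusted p under 0.05. Most genes of the resting profile differed, as most genes of any kind did. Of the 30 highest control genes 9 were also among the 30 highest with IL-1β and 11 with IL-1β and SFRP5, and of the 100 highest 49 and 56.

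Levels in TPM and the log2 changes of this test are on different scales. The test corrects for composition by TMM factors, after which the median change of all genes was −0.03 with IL-1β, while on the TPM scale it was −0.46. With both agents these medians were −0.03 and −0.33. Changes given here are those of the test, as log2 values, first for IL-1β and then for both agents, with SE where shown. Most genes compared were named for high levels in the same control libraries that the test uses, so the choice leans toward falls.

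Several of the leading genes of resting cells, chosen for their control levels, were much lower after stimulation. Thbs1 was at 246 ± 24.3 TPM with IL-1β and 756 ± 83.8 TPM with IL-1β and SFRP5, log2 changes of −5.24 ± 0.06 and −3.74 ± 0.05 (edgeR, adjusted p = 1.68e-29 and 4.39e-27). H19 was at 103, 107 and 81.7 TPM with IL-1β and 406, 425 and 365 TPM with both agents, all far below control, with changes of −6.21 ± 0.08 and −4.30 ± 0.07 (edgeR, adjusted p = 2.63e-28 and 7.54e-26). Its short antisense neighbours ENSMUSG00002076121 and ENSMUSG00002075214 were at 64.1 and 45.3 TPM with IL-1β. The changes were −2.69 and −2.14 for Cdsn, −2.54 and −1.97 for Serpinh1, −3.93 and −3.72 for Igfbp5, and −8.35 and −7.34 for Cdkn1c, which was at 1.65 TPM with IL-1β. All passed the test.

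Of 50 tested genes of the chondrocyte and skeletal list 33 fell and 13 rose with IL-1β, with a median of −1.05, and 30 fell and 16 rose with both agents (median −0.49). Of 24 Hox genes 18 fell and 2 rose, and 17 fell and 1 rose with both. Over all genes 38.5% were higher and 40.4% lower with IL-1β, and 37.3% and 39.0% with both agents. The changes were −3.39 and −2.69 for Hoxa10, −2.07 and −1.07 for Pitx1, −6.03 and −5.50 for Aff3, −2.52 and −1.79 for Nfix, and −3.92 and −3.16 for Peg3. They were smaller for Plagl1 at −1.52 and −1.89, Sox9 at −1.35 and −1.34, Rarg at −1.15 and −0.82 and Srebf1 at −0.80 and −0.86. The leading factors Atf4 and Atf5 went apart, Atf4 rising by 1.08 ± 0.04 and 0.82 ± 0.04 and Atf5 changing by −0.63 ± 0.04 and −0.72 ± 0.04 (edgeR, adjusted p = 3.51e-19 and 1.54e-16 for Atf4, 1.01e-13 and 9.98e-15 for Atf5).

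Of 36 tested cytokine and innate immune receptors 25 rose and 8 fell with IL-1β (median 0.75), and again 25 and 8 with both agents (median 0.85). Of 25 Wnt, hedgehog and Notch receptors 8 rose and 15 fell with IL-1β (median −1.39), and of 44 G protein-coupled receptors and channels 12 rose and 28 fell (median −1.01). Growth factor receptors divided into 15 that rose and 18 that fell among 37. Over all genes 38.5% were higher and 40.4% lower, and the counts of the growth factor receptors are near those shares. In the growth factor and the Wnt, hedgehog and Notch lists, the genes highest in control whose changes are given here fell, a direction that the choice favours. No change is given for Ddr2 and Boc, each in place 4 of its list. Ddr2 was at 241.1 TPM in control, 210.5 TPM with IL-1β and 215.4 TPM with both agents. Boc was at 215.5, 31.6 and 36.9 TPM in the same order. Fgfrl1 had changes of −4.01 and −3.93, Fgfr3 of −5.06 and −5.08, Gas1 of −5.91 and −4.25 and Fzd9 of −6.38 and −5.83. Changes were −3.31 and −2.05 for Cdon, −1.12 and −0.99 for Igf2r, −1.44 and −0.93 for Adgrg2, −1.35 and −2.14 for Trpv4 and −0.22 and −0.34 for Piezo1. Il6st rose by 1.01 and 1.32, Tnfrsf1a by 0.56 and 0.96 and Itgb1 by 0.90 and 0.55. Tnfrsf11b rose by 0.35 and 0.70, although in TPM it was lower with IL-1β than in control, at 273 against 288 TPM.

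The IL-1 receptor gene Il1r1 fell, with changes of −0.93 ± 0.06 and −0.34 ± 0.05 (edgeR, adjusted p = 4.87e-14 and 2.8e-06). Its partner Il1rap rose by 0.29 ± 0.10 and 0.83 ± 0.09 (edgeR, adjusted p = 0.00903 and 1.05e-08), although in TPM it was lower with IL-1β, at 4.60 against 5.06 TPM. The first of these calls for Il1rap was lost without IL-1β library 3, with a change of 0.22 and an adjusted p = 0.0574. Sfrp5 had 269 counts over the control libraries and 1 over the IL-1β libraries.

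Of the metabolic lists, 20 of 27 tested glycolysis genes rose and 5 fell with IL-1β (median 1.74), and 16 of 24 antioxidant genes rose and 7 fell (median 1.68). Ldha rose by 2.16 and 2.09, Pgk1 by 1.64 and 1.51, Eno1 by 0.73 and 0.50 and Hmox1 by 3.96 and 3.81. Fatty acid oxidation genes fell in 17 of 26 cases and rose in 6 (median −0.49), and genes of pyruvate oxidation and the TCA cycle fell in 14 and rose in 10 of 31 (median −0.10). Serine, glycine and proline genes were split, 8 up and 10 down of 21, with changes of −1.45 and −1.63 for Phgdh. Over all genes 38.5% were higher and 40.4% lower with IL-1β. The counts of the serine list and of the TCA cycle list are near those shares. Cell cycle genes fell in 24 of 30 cases and rose in 4 (median −2.73). Of the marker lists, all 12 chondrocyte markers fell with IL-1β and 11 of 12 with both agents. With IL-1β 7 of 7 tested adipocyte, 6 of 7 osteoblast and osteocyte and 6 of 7 tendon and ligament markers fell too, while 4 of 6 tested macrophage markers rose and 1 fell. A gene was tested if 1 group alone passed the low-count filter. Members that passed only through control could hardly do other than fall, and those that passed only through stimulated cells other than rise. No conclusion about cell types is drawn from the counts of these other lists. The neutrophil markers Camp and S100a8, named after their values were seen, were at 22.8 and 7.10 TPM with IL-1β, and S100a9, Ly6g and Csf3r were at 0. The part of such cells in the changes was not tested.

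**Figure D4:**
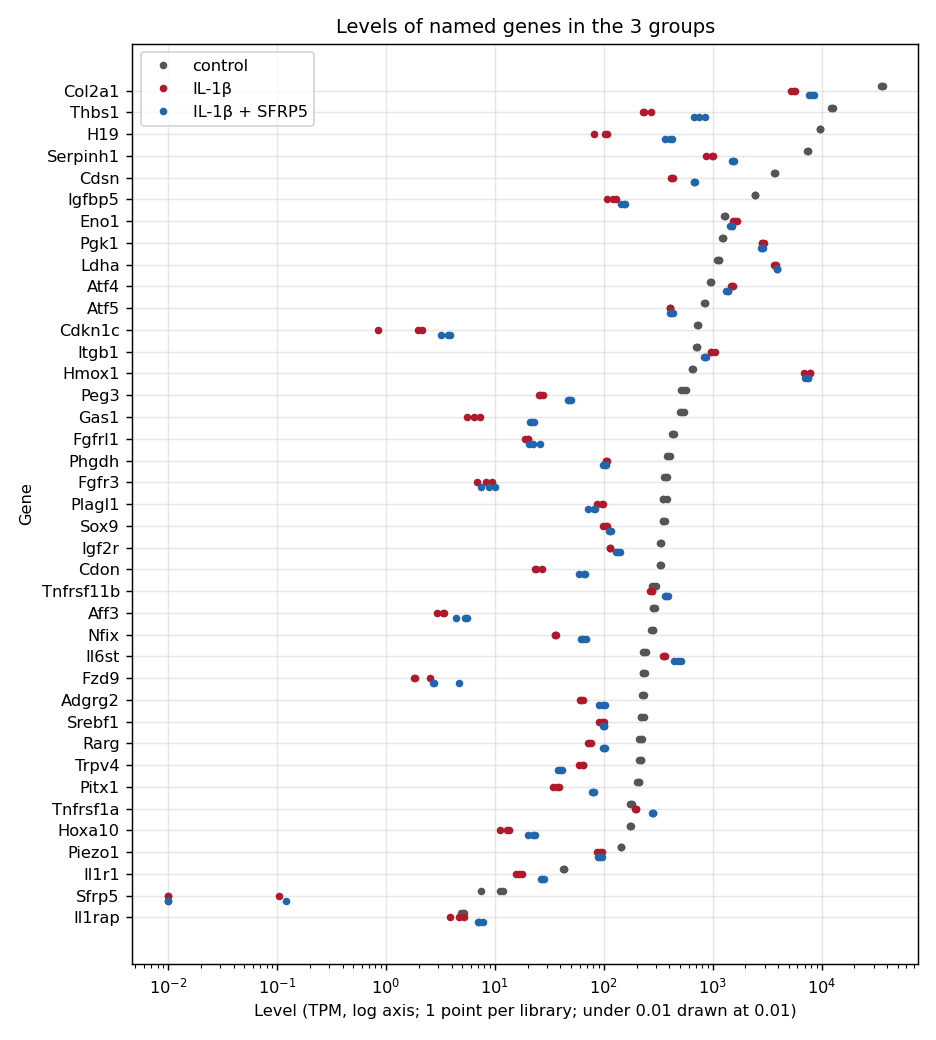
Levels of genes named above in control (grey), IL-1β (red) and IL-1β with SFRP5 (blue) libraries, 1 point per library, in TPM on a log axis, ordered by the control mean, with values under 0.01 TPM drawn at 0.01. The control points of a gene mostly lie close together, and most stimulated points lie to their left, with Hmox1, Ldha and Pgk1 among those to the right. Most of these genes were named for their control levels, which favours points to the left. Il1rap and Tnfrsf11b lie slightly to the left with IL-1β on this scale although their tested changes are above 0.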

How the data were processed

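RNA sequencing covered 9 libraries, 3 per group. Per the labels' protocols, NEBNext Ultra II Directional libraries were made from purified RNA, read as 150 bp pairs, trimmed with fastp, aligned to mm10 with STAR and quantified with RSEM. No source used here gives versions, annotation, strand setting or rounding. Columns were matched to samples by letter and replicate number, and those of the IL-1β with SFRP5 group have a further number of unknown meaning. The deposited values are counts, whole numbers per gene, in 1 table that also gives gene length, type and transcription factor family.

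Here each count was divided by the table's gene length and scaled to 1000000 per library (TPM). That length equals the union of GENCODE M21 exons within 10% for 99.5% of 11991 detected protein-coding genes and exceeds the median transcript by 1.51 times at the median, which lowers genes with long rare exons. Detected means 1 TPM or more in every control library. Levels have no test. The comparison with stimulated cells used edgeR 4.0.16 (R 4.3.3) with TMM, filterByExpr, 1 fit over 9 libraries and Benjamini-Hochberg adjustment over 15502 genes. The fit was tested on simulated data. Intervals of 0 counts cover counting error only. There were 43 lists, 15 of them cell type markers, and 6 of 926 listed symbols were not in the table.

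Genes were named by rule: the 30 highest, the 4 highest of each list and its members at 0 counts, the 20 highest transcription factors, the 5 largest and 5 smallest coefficients of variation, the 5 chondrocyte markers and the targets of the added agents. A few genes that the rule names are not reported here. Others are said to have been named after their values were seen. The members and lists were chosen with earlier results of these data known. Alternatives were other scalings, lengths, thresholds, tools and fits and leaving out each library. Same-numbered libraries did not deviate together.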

Additional observations from a re-analysis of the deposited data

How the results depend on the processing

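The share of the 10 highest genes, 12.7%, was 13.4% over protein-coding genes only, 12.1% without mitochondrially encoded genes, 19.4% without length scaling, 11.6% with GENCODE M21 median transcript lengths and 12.9% without genes under 200 bases. The share of the matrix lists, 17.9%, was 19.4%, 18.7%, 27.8%, 16.6% and 18.1% under the same settings. The last 2 settings were chosen after seeing the data. Leaving out each control library gave 12.7% to 12.8% and 17.7% to 17.9%. Detected genes numbered 10985 to 15737 over all settings. With transcript lengths, 84 of 192 named levels moved by over 1.5 times, at a median ratio of 0.740. Col2a1 stayed first, Sox9 went from 356 to 217 TPM and Ccnd2 from 339 to 1934 TPM.

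With the replicate block, 12151 genes were called with IL-1β and 11762 with both agents, against 12227 and 11828 without it. The numbers do not pair the libraries: same-numbered libraries correlated at −0.0364 to 0.0402 in their deviations from group means. Under DESeq2 11837 and 11434 genes were called, with RLE factors 12207 and 11824, with no low-count filter 13310 and 12763. Leaving out each library gave 11955 to 12534 and 11482 to 12122 genes. The changes of single genes given in the report as log2 values kept their direction and call in all these alternatives, except that of Il1rap as given there. The counts by list were not recomputed under them.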

Other observations

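Control libraries differed least and most in the following genes. Over 9429 genes at a mean of 10 TPM or more the median coefficient of variation was 4.29%, and 276 genes were over 20%. The smallest values were those of Ppm1d (17.3 TPM in each library, 0.0154%), Aff1, Kdm7a, Kctd15 and Spats2l (0.106%). The largest were those of the miRNA genes Mir421 (135.7%) and Mir409 (115.8%), the short RNAs ENSMUSG00002076469 and Gm27343, all with 12 to 18 counts in total, and Srp54b (131.2%).

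Srp54b, which encodes a form of a signal recognition particle subunit, was at 8.01, 2.64 and 54.3 TPM in control libraries 1, 2 and 3 and varied in the IL-1β libraries too, at 29.3, 13.1 and 49.1 TPM. Sumo2, a small ubiquitin-like modifier named after its values were seen, was at 14.1, 17.9 and 73.3 TPM in control and at 7.94 to 8.54 TPM in the IL-1β libraries. The ribosomal protein genes Rpl17 (198, 531 and 218 TPM) and Rps27rt (168, 800.3 and 555 TPM) also varied, and were named after their values were seen. In all, 83 ribosomal protein genes held 7.94% of the level and 322 ribosomal protein pseudogenes 0.978%, of which 91 were detected.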
